A study of Mus musculus with 39 samples.

Results

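Transcripts of 9 genes were followed in mouse photoreceptors with and without the rod factor Nrl. They were the thyroid hormone receptors Thrb and Thra, the retinoid X receptors Rxrg, Rxra and Rxrb, the orphan receptor Rora, the zinc finger factor Sall3, and the COUP-TF receptors Nr2f1 and Nr2f2. Members were all the probe sets that the array annotation pairs with 1 of these symbols alone, 27 probe sets in all, and the genes are 9 of the 18193 that the array measured. Each gene is given by its probe set of highest mean over all arrays. Affymetrix mouse arrays measured RNA of cells sorted by flow cytometry for green fluorescent protein, a reporter under the Nrl promoter in ko and wt mice alike. The ko group came from mice lacking Nrl that carried this reporter, and the wt group from mice with the reporter and intact Nrl. Both were sampled at embryonic day 16 (E16), postnatal days 2, 6 and 10 (P2, P6, P10) and 4 weeks, with 4 arrays in each of the 10 groups except ko E16, which had 3. The labels name no strain and do not say whether arrays came from separate animals, so that p-values measure only the spread between these arrays. The label of ko 4 weeks replicate 1 alone adds the word retina, without a reason.

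Thyroid hormone receptors bind DNA at hormone response elements, mostly as dimers with a retinoid X receptor, and recruit coactivators or corepressors depending on the hormone. In the mouse retina, the Thrb isoform TRβ2 is needed for the medium-wavelength opsin Opn1mw, and Rxrg helps to keep the short-wavelength opsin Opn1sw low in dorsal cones. Rora acts on cone opsin genes, Nr2f1 and Nr2f2 take part in the dorsal to ventral pattern of cone opsins, and Sall3 takes part in the development of cones and horizontal cells.

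Values are signals on the log2 scale, given in replicate order, with group means ± SD. Differences are ko minus wt, or later minus earlier stage, with their standard error (SE). A call means a Benjamini-Hochberg adjusted p below 0.05 over all 18193 genes in limma, with 1 model over the 39 arrays. Robustness to single arrays was tried by leaving out, 1 at a time, each array of the groups compared and ko 4 weeks replicate 2. The deposited detection calls, 1 per probe set, genotype and stage, were present (P) or absent (A), and a gene with an absent call is near background. The adult column of the calls could not be tied to the 4-week group, so that differences at 4 weeks are given on the log2 scale without a fold. A fold is "at least" where the dimmer group was absent. Levels of different probe sets cannot be compared with each other.

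Nrl itself was lower in ko at every stage, by -3.77 at E16 and by -4.82, -5.43, -6.09 and -5.74 at P2, P6, P10 and 4 weeks (adjusted p between 5.47e-05 and 9.65e-11). The mean of 6 cone markers at 4 weeks was between 12.00 and 12.40 in ko arrays and between 8.11 and 10.21 in wt arrays. That of 5 rod markers was between 8.27 and 9.01 in ko arrays and between 12.56 and 12.70 in wt arrays. At E16, 4 of the 6 cone markers were present in each genotype, and of the rod markers 0 were present in ko and 2 in wt. In all, 6 arrays were marked as doubted. Of these, 5 had the narrowest spread over probe sets (SD between 1.34 and 1.41, against 1.45 or more in the other arrays): ko E16 replicate 3, ko P2 replicate 4, ko P6 replicate 4, and wt P10 replicates 1 and 2. The other was ko 4 weeks replicate 2, which held Nrl at 9.05 and a mean of 7 progenitor markers at 9.94, against 7.42 to 7.66 in the other ko arrays of that age. Calls of the members and of the other named genes that end or appear without these 6 doubted arrays are given both ways. Without them, wt P10 keeps only replicates 3 and 4, and ko E16 only replicates 1 and 2, so that results there rest on few arrays. No array was marked for a wide spread, and others that differed from their group were kept. In wt P2 replicate 1 the mean of 7 amacrine markers was 7.63, against 9.33 to 9.76 in the other wt P2 arrays.

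**Figure D1:**
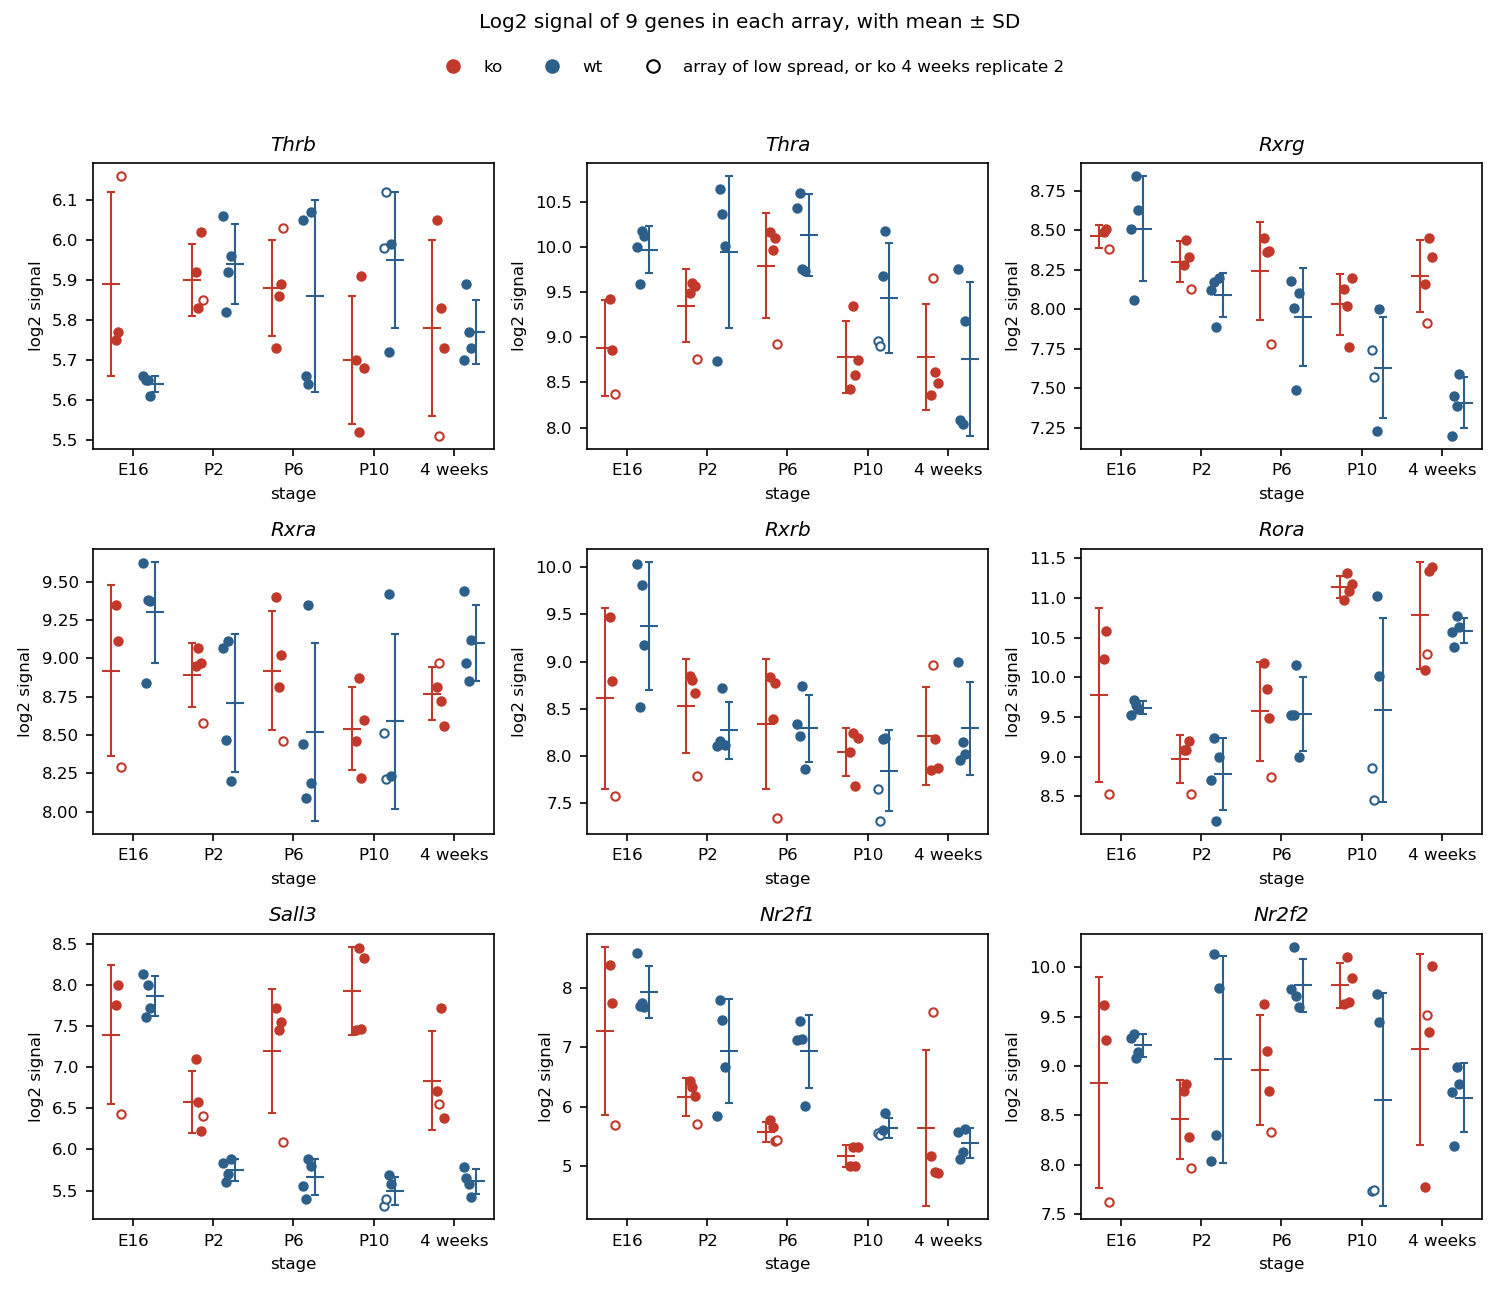
Log2 signal of the 9 genes in each array at 5 stages, with ko in red left of wt in blue, each panel on its own axis, and mean ± SD as a cross bar. Open circles are the 6 doubted arrays. Sall3 in ko lies above wt in every array at P2, P6, P10 and 4 weeks, and Rxrg in ko lies above wt in every array at 4 weeks.

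Between genotypes, Sall3 was the member with calls at several stages. At E16 and P2 none of the 9 members was called by limma (1 at each stage had an unadjusted p below 0.05), against 1.13% and 0.346% of all genes in either direction. At these stages 0.308% and 0.126% of all genes rose in ko, and 0.819% and 0.22% fell. At P6, 1 member rose in ko, Sall3, where 1.54% of all genes were called and 0.797% rose. At P10, 2 rose, Sall3 and Rora, where 2.81% were called and 1.95% rose, and at 4 weeks 2 rose, Sall3 and Rxrg, where 4.73% were called and 2.11% rose. By limma, 0 members fell at P6, P10 or 4 weeks, where 0.748%, 0.868% and 2.62% of all genes fell. In either direction, 2, 5 and 2 members had an unadjusted p below 0.05 at these stages. The median difference of the 9 members was -0.39, 0.18, 0.02, 0.20 and 0.19 at the 5 stages, and that of all genes was 0.07, 0.03, -0.02, -0.06 and 0.03. In sorted cells measured in bulk, fewer cells of a type and less RNA per cell cannot be told apart.

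**Figure D2:**
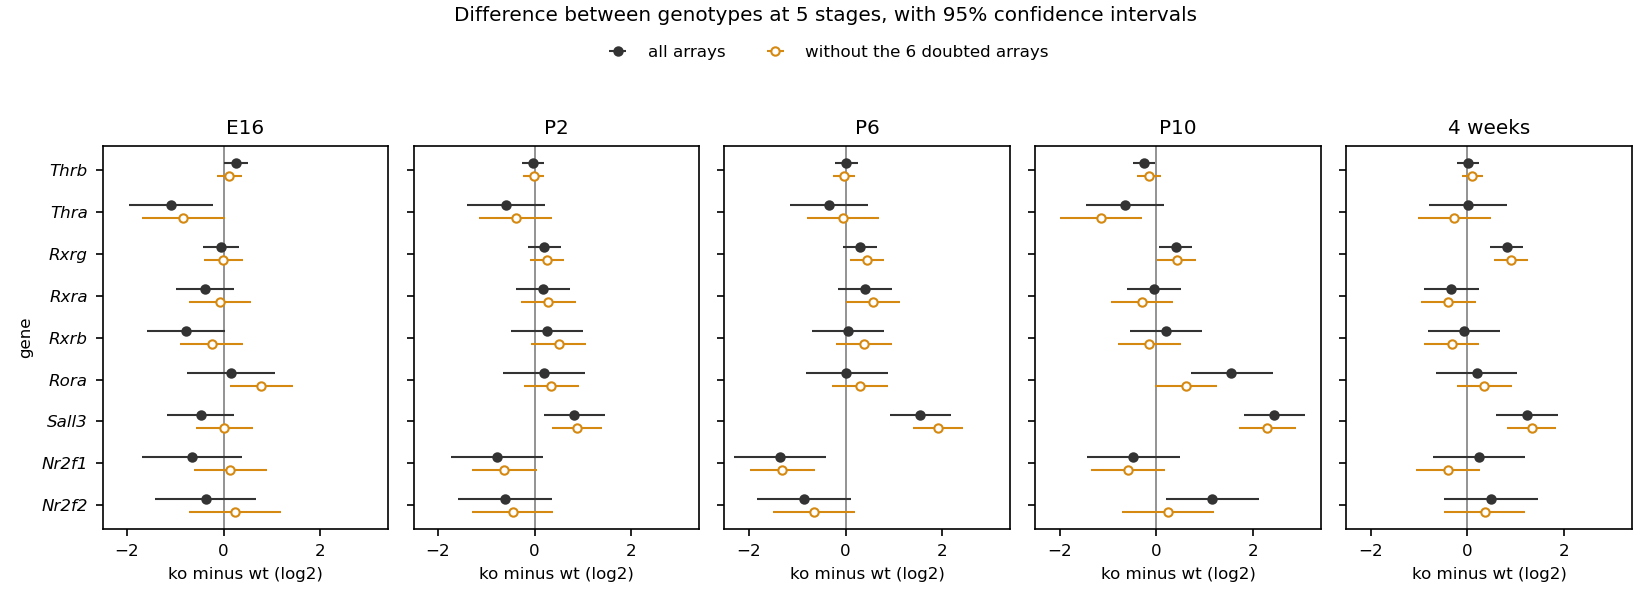
Difference between genotypes (ko minus wt, log2) for the 9 genes at 5 stages, with 95% confidence intervals, over all arrays (filled) and without the 6 doubted arrays (open). Sall3 moves to the right up to 2.43 at P10, Rxrg lies at 0.81 at 4 weeks, and Rora at P10 moves to 0.62 when the 6 arrays are left out.

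Over the whole span, 1 of the 9 members was lower in ko at 4 weeks than in ko at E16, Nr2f1 (7.38% of all genes were called, 3.25% lower and 4.12% higher). In wt 5 were lower at 4 weeks than at E16, Sall3 (-2.26, adjusted p = 1.35e-06), Nr2f1, Thra, Rxrg and Rxrb, where 18.3% of all genes were called, 11.6% lower and 6.66% higher. By limma, 0 members were higher in either span. Counting both directions, 2 members in ko and 6 in wt had an unadjusted p below 0.05. The median difference of the members was -0.15 in ko and -1.10 in wt, and that of all genes -0.03 and 0.05. Without the doubted arrays Rxrb (-1.16, adjusted p = 0.0121) and Sall3 (-0.95, adjusted p = 0.0236) were also lower in ko at 4 weeks than at E16. Markers of other cells fell over the same spans: 2 of 7 progenitor, 3 of 7 ganglion cell and 0 of 7 amacrine markers in ko (list medians -1, -0.34 and 0), against 5, 6 and 3 of 7 in wt (-2.89, -1.61 and -1.22). The part of these cells in the members' falls was not tested. Differences between the genotypes in these spans were tested only through the F test over all stages.

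Of the steps between neighbouring stages, 2 held a member call: Sall3 was lower in wt at P2 than at E16, and Rora was higher in ko at P10 than at P6. In ko the steps to P2, P6, P10 and 4 weeks called 1%, 0.66%, 1.37% and 1.04% of all genes, with 0.253%, 0.528%, 0.643% and 0.72% higher and 0.748%, 0.132%, 0.731% and 0.319% lower at the later stage. In wt they called 3.97%, 0.148%, 0.352% and 5.34%, with 1.1%, 0.137%, 0.0989% and 4.25% higher and 2.87%, 0.011%, 0.253% and 1.09% lower. Members with an unadjusted p below 0.05 in these 4 steps numbered 2, 0, 3 and 1 in ko and 6, 0, 2 and 1 in wt. Without the doubted arrays more steps passed. At P2 against E16 these were Rora (-1.28), Sall3 (-1.25) and Nr2f1 (-1.75) in ko, and Thrb (0.30), Rxrg (-0.42), Rxrb (-1.11), Rora (-0.84) and Nr2f1 (-0.98) in wt. In ko, Sall3 at P6 against P2 and at 4 weeks against P10, and Thra at P10 against P6 (-1.30, adjusted p = 0.0319), passed too.

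Sall3 (Entrez 20689, chromosome 18, probe set 1441186_at) is a zinc finger transcription factor of the spalt family. At P10 it lay at 7.45, 8.45, 7.47 and 8.33 in ko arrays, against 5.31, 5.40, 5.69 and 5.58 in wt arrays. At P6 it lay at 7.72, 7.46, 7.55 and 6.09 in ko, against 5.55, 5.40, 5.89 and 5.80 in wt. The groups did not overlap at either stage, and the lowest ko array at P6 was the doubted replicate 4. Sall3 was at least 5.39-fold higher in ko at P10 (difference 2.43, SE 0.31, adjusted p = 3.22e-06) and at least 2.92-fold higher at P6 (1.54, SE 0.31, adjusted p = 0.00449). At 4 weeks ko arrays held 6.71, 6.56, 7.72 and 6.38, and wt arrays held 5.79, 5.65, 5.58 and 5.42, a difference of 1.23 (SE 0.31, adjusted p = 0.0123). The P6 call missed the threshold when only the arrays of that stage were fitted (adjusted p = 0.0804), and the 4-week call when ko replicate 3 was left out (0.94, adjusted p = 0.103).

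Before P6 the genotypes did not differ in Sall3 beyond the threshold. At E16 ko arrays held 7.76, 8.01 and 6.43 and wt arrays 8.14, 7.62, 8.01 and 7.73 (difference -0.47, SE 0.34, adjusted p = 0.47), and the low ko value was that of doubted replicate 3. At P2 ko arrays held 7.10, 6.58, 6.22 and 6.41 and wt arrays 5.83, 5.60, 5.70 and 5.88, a difference of 0.82 (SE 0.31, adjusted p = 0.655), with an absent detection call in both. The test of whether the genotype difference varied over the stages passed for Sall3 (F = 10.71, adjusted p = 0.0012), and the call held with any 1 of the 39 arrays left out (highest adjusted p = 0.00482). It passed for 1 member of 9, against 3.14% of all genes. Sall3 was called present in ko at E16, P6 and P10 and in wt at E16.

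Within wt, Sall3 was at least 4.34-fold lower at P2 than at E16 (5.75 ± 0.13 against 7.87 ± 0.24, n = 4 each, difference -2.12, SE 0.31, adjusted p = 9.9e-05). It was at 5.66 ± 0.22, 5.49 ± 0.17 and 5.61 ± 0.15 at P6, P10 and 4 weeks (n = 4 each), with no call between neighbouring stages. Within ko, means were 7.40 ± 0.85 (n = 3) at E16 and 6.58 ± 0.38, 7.20 ± 0.75, 7.93 ± 0.54 and 6.84 ± 0.60 (n = 4 each) at the later stages, again without a call between neighbours. Without the 6 doubted arrays, 3 of these ko steps passed: P2 against E16 (-1.25, adjusted p = 0.00459), P6 against P2 (0.94, adjusted p = 0.0482) and 4 weeks against P10 (-0.99, adjusted p = 0.0221). With the replicate block over all arrays, the steps to P2 and P6 were -0.77 and 0.63 (adjusted p = 0.406 and 0.547). By mean, ko P10 stood highest, then wt E16, then ko E16, P6, 4 weeks and P2, with the 4 later wt groups lowest. The second Sall3 probe set, 1452386_at, was absent in every column and differed by no more than 0.09 between genotypes at any stage. The Sall3 values thus come from 1 probe set.

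Sall3 is also known from horizontal cells. Of 5 horizontal cell markers, 2 were present in any group, and their list mean at P10 was between 6.87 and 6.99 in ko arrays and between 6.89 and 7.29 in wt arrays. One of the 5, Calb1, fell in ko at P10 (-1.22, adjusted p = 0.000135). The bipolar marker mean at P10 was between 8.64 and 8.67 in ko and between 8.75 and 8.94 in wt. At P10, 1 of the 5 horizontal cell markers was called present in ko and 2 in wt, so that their list mean lay mostly near background. Among other marker lists, Tyrp1 and Dct of 5 pigment epithelium markers (1.03 and 0.82) rose in ko at P6. C1qb of 6 markers of microglia and leukocytes (1.78) rose there too. In ko at P6, 2 of these 5 and 1 of these 6 markers were called present. At P10, Dct (0.80) and Apoe of 6 Mueller glia markers (0.79) rose. Each of these genes was absent in wt at the stage named. Of 7 amacrine markers, Tfap2b and Gad1 fell at P6 (-3.50 and -2.78) and at P10 (-2.69 and -2.51). At 4 weeks, of 5 bipolar markers Cabp5 rose (0.97) and Prkca fell (-1.85), and of the 6 Mueller glia markers Aqp4 fell (-1.35). The part of these cells in the Sall3 result was not tested.

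The 3 relatives of Sall3 were measured too. Sall1 rose at P10 (7.83 ± 0.11 in ko, 6.56 ± 0.58 in wt, n = 4 each, difference 1.27, SE 0.29, adjusted p = 0.00855, and 1.72 without the doubted arrays), and 2 of the 3 were not called. At E16, Sall1 (1.23, adjusted p = 0.0447) and Sall4 (0.95, adjusted p = 0.0489), named after their values were seen, rose in ko. Both E16 calls were lost without single arrays, Sall1 without 5 of 8 and Sall4 without 4 of 8 (highest adjusted p = 0.179 and 0.233), and without the doubted arrays the differences were 1.83 and 1.33.

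Rxrg (Entrez 20183, chromosome 1, probe set 1418782_at) is the retinoid X receptor of cones and a partner of thyroid hormone receptors. At 4 weeks Rxrg read 8.16, 7.91, 8.45 and 8.33 in ko arrays, against 7.20, 7.45, 7.39 and 7.59 in wt arrays. The groups did not overlap, and the lowest ko array was the doubted replicate 2. Rxrg was higher in ko by 0.81 (SE 0.17, adjusted p = 0.00175). The call held with any 1 array left out (differences between 0.73 and 0.91, highest adjusted p = 0.0138), and the difference was 0.91 without the 6 doubted arrays.

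Earlier, the differences in Rxrg between ko and wt were -0.05, 0.20, 0.30 and 0.40 at E16, P2, P6 and P10 (SE 0.17 or 0.18, adjusted p of 0.869, 1, 0.574 and 0.26). Over the stages, means in wt were 8.51 ± 0.33, 8.09 ± 0.14, 7.95 ± 0.31, 7.63 ± 0.32 and 7.41 ± 0.16 (n = 4 each), and no 2 neighbouring stages differed by a call. The ends of the span did, with wt at 4 weeks lower than wt at E16 (difference -1.10, SE 0.17, adjusted p = 7.48e-06). In ko the means were 8.46 ± 0.07 (n = 3), 8.30 ± 0.13, 8.24 ± 0.31, 8.03 ± 0.19 and 8.21 ± 0.23 (n = 4 each), and 4 weeks against E16 gave -0.25 (SE 0.18, adjusted p = 0.661). The test of whether the genotype difference varied over the stages did not pass (adjusted p = 0.275). The detection call of Rxrg was present at wt E16 and absent in every other column, adults included, so that these differences lie near background. Ganglion cells also express Rxrg, and the mean of 7 ganglion cell markers at 4 weeks was between 6.90 and 7.48 in ko arrays and between 6.96 and 7.43 in wt arrays. At E16 it was between 7.49 and 7.78 in ko arrays and between 8.11 and 8.87 in wt arrays. The ganglion cell mean was thus lower at 4 weeks than at E16 in both genotypes. The part of these cells in the Rxrg result was not tested.

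RefSeq lists 2 starts for Rxrg and 2 for Thrb with a promoter sequence, from 250 bases before to 50 bases after each start (GRCm38.p6, plus strand). They are shown because the array reads the gene and not the start in use. Capitals mark matches to AGGTCA, the half-site bound by nuclear receptors, or TAATCC, a site of the photoreceptor homeodomain factors, whose reverse complement is printed where it lies on the minus strand.
Rxrg upstream start, chr1:167598112-167598411: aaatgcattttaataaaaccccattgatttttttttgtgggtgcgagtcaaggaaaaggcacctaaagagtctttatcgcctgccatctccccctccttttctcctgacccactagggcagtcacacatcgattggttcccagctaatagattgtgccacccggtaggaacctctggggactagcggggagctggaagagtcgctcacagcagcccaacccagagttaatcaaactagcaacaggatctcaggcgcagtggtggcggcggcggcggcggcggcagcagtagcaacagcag
Rxrg downstream start, chr1:167618015-167618314: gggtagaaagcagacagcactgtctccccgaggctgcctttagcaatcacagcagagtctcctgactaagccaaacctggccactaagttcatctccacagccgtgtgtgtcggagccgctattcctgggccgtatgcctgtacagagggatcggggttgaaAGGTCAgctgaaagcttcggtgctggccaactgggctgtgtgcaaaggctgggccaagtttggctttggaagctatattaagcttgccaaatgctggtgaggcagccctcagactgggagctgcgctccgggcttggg
Thrb upstream start, chr14:17660710-17661009: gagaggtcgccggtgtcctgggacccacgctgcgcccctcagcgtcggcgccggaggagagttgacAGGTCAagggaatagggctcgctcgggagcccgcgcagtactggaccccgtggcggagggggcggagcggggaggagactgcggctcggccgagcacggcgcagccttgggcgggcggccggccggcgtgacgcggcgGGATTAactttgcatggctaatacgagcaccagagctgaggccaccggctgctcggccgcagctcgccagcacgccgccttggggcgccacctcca
Thrb downstream start, chr14:17981394-17981693: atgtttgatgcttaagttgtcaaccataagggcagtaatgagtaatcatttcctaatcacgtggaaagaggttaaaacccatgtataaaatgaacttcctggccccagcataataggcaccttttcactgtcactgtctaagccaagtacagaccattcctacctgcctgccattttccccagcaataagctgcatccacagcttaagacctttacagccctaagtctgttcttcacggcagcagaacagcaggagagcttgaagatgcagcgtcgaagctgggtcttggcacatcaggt
In all, 4 motifs were searched on both strands. The nuclear receptor half-site AGGTCA occurs in 16.3% of the 32851 mouse promoters of that length. The ROR type site TAGGTCA, which contains the half-site, occurs in 2.61%. The homeodomain site TAATCC occurs in 7.06%, and the Maf half-site TGCTGA in 19.5%. The downstream Rxrg start has 1 AGGTCA, its first base at position -88 from the start, and the upstream start has none of the 4. The upstream Thrb start has AGGTCA at -184 and TAATCC on the minus strand at -46. Of 12 promoter entries for 7 of the members, 4 held a match. These were the downstream start of Rxrg, the upstream start of Thrb, 1 entry of Rxra and that of Nr2f2. The Rxra entry had AGGTCA at -87, as its reverse complement, and at -48. The Nr2f2 entry had TAATCC at -233 and, as its reverse complement, at -27.

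Thrb (Entrez 21834, chromosome 14, probe set 1422202_at), the receptor whose isoform TRβ2 is made in cones, had 1 probe set, present in every column. It is not known here which of its isoforms the probe set reads. Its signal stayed between 5.51 and 6.16 in all 39 arrays, and its 10 group means spanned 0.31. Its deviations from the group means went against the spread of the array over probe sets (r = -0.79). In the other members r was -0.03 for Rxrg and between 0.62 and 0.82 for the rest. Whether this probe set follows the level of Thrb RNA was not tested. At 4 weeks Thrb read 6.05, 5.51, 5.83 and 5.73 in ko, against 5.70, 5.89, 5.77 and 5.73 in wt. At P10 it lay at 5.70, 5.52, 5.91 and 5.68 in ko, against 5.98, 6.12, 5.72 and 5.99 in wt. The genotypes overlapped at both stages, with differences of 0.01 (95% interval -0.22 to 0.24, adjusted p = 1) and -0.25 (-0.49 to -0.02, adjusted p = 0.307). At E16 ko arrays held 5.75, 5.77 and 6.16 and wt arrays 5.66, 5.65, 5.65 and 5.61. These groups did not overlap, and the difference was 0.25 (SE 0.12, adjusted p = 0.351), and 0.11 without the doubted arrays.

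Thra (Entrez 21833, chromosome 11, probe set 1454675_at), the more widely expressed thyroid hormone receptor, was present in every column. At E16 ko arrays held 9.42, 8.86 and 8.37 and wt arrays held 10, 9.59, 10.17 and 10.12. The groups did not overlap, yet the difference (-1.09, SE 0.43) missed the threshold (adjusted p = 0.229). At P2, P6, P10 and 4 weeks the differences were -0.58, -0.34, -0.65 and 0.02, none of them called, and that at P10 was -1.15 (adjusted p = 0.0973) without the doubted arrays. In wt, Thra was lower at 4 weeks than at E16 (8.76 ± 0.85 against 9.97 ± 0.26, n = 4 each, difference -1.21, SE 0.39, adjusted p = 0.0279). Leaving out any 1 of 5 arrays ended that call, wt 4 weeks replicates 2 and 3 and wt E16 replicates 1, 3 and 4 (adjusted p up to 0.136), and the 4-week arrays at 9.76, 8.08, 8.04 and 9.18 fell into a higher and a lower pair. The same replicates, 1 and 4 against 2 and 3, stood apart in amacrine markers (9.53 and 9.02 against 7.24 and 7.36) and in cone markers (10.21 and 9.65 against 8.11 and 8.33). Their part in the Thra result was not tested. In ko, Thra was at 8.78 ± 0.59 (n = 4) at 4 weeks and 8.88 ± 0.53 (n = 3) at E16 (difference -0.10, adjusted p = 0.993). Its other 2 probe sets were absent throughout.

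Rxra (Entrez 20181, chromosome 2, probe set 1454773_at) and Rxrb (Entrez 20182, chromosome 17, probe set 1416990_at), the more widely expressed dimer partners, were present in every column, and neither was called between genotypes. Differences of Rxra ran between -0.39 at E16 and 0.41 at P6, and those of Rxrb between -0.77 at E16 and 0.25 at P2. Rxrb at E16 lay at 9.47, 8.79 and 7.57 in ko, where the lowest array was the doubted replicate 3, and its mean there was 8.61 ± 0.96 (n = 3), against 9.38 ± 0.68 (n = 4) in wt. Without the doubted arrays that difference was -0.25. In wt, Rxrb was lower at 4 weeks than at E16 (8.29 ± 0.49 against 9.38 ± 0.68, n = 4 each, difference -1.10, SE 0.37, adjusted p = 0.0311). Leaving out any 1 of 5 arrays ended this call as well (adjusted p up to 0.151, when wt E16 replicate 1 was dropped). For Rxra, wt was 9.10 ± 0.25 at 4 weeks and 9.30 ± 0.33 at E16 (n = 4 each, difference -0.21, adjusted p = 0.711).

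Rora (Entrez 19883, chromosome 9, probe set 1455165_at) is an orphan receptor that acts on cone genes. At P10 it lay at 10.98, 11.31, 11.09 and 11.18 in ko arrays, against 8.86, 8.45, 11.02 and 10.02 in wt arrays. The ko arrays lay close together, while the wt arrays spread widely and the third lay within the ko range. Rora rose in ko by 1.55 (2.93-fold, SE 0.41, adjusted p = 0.0318). The 2 low wt arrays are the doubted replicates 1 and 2, and without the 6 doubted arrays the difference was 0.62 (adjusted p = 0.268). The call was also lost without 6 of 9 single arrays (differences between 1.17 and 2.03, highest adjusted p = 0.186), for the mean of all Rora probe sets (0.53, adjusted p = 0.0584) and with only the 2 groups in the fit (adjusted p = 0.288). The call held with the array SD as a covariate (1.19, adjusted p = 0.00176) and after quantile normalization (1.29, adjusted p = 0.00542).

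Of the 9 Rora probe sets, 6 were present in at least 1 column. At P10 the other 5 of these gave differences between 0.19 and 1.07, positive in each and none called over all probe sets (1436326_at 1.07, adjusted p = 0.17, and 1424034_at 0.86, adjusted p = 0.201). At 4 weeks the main probe set was 10.78 ± 0.68 in ko and 10.59 ± 0.16 in wt (n = 4 each, difference 0.19, adjusted p = 1), and the genotypes overlapped. At E16, P2 and P6 the differences were 0.16, 0.19 and 0.02 (0.78, 0.34 and 0.30 without the doubted arrays, none called), and at P2 Rora was called absent in both genotypes. Within ko, Rora was higher at P10 than at P6 (11.14 ± 0.14 against 9.57 ± 0.62, n = 4 each, difference 1.57, SE 0.41, adjusted p = 0.0459). That call was lost with the replicate block (adjusted p = 0.066) and without 7 of 9 single arrays (highest adjusted p = 0.142). Over the whole span Rora differed by 1.00 (SE 0.45, adjusted p = 0.232) in ko and by 0.97 (SE 0.41, adjusted p = 0.112) in wt. With the mean of its probe sets these were 0.68 and 0.77 (adjusted p = 0.00786 and 0.000379), and without the doubted arrays 0.54 and 0.97 (adjusted p = 0.23 and 0.00483). The order of means put ko P10 first, then ko and wt at 4 weeks, and wt P2 last.

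**Figure D3:**
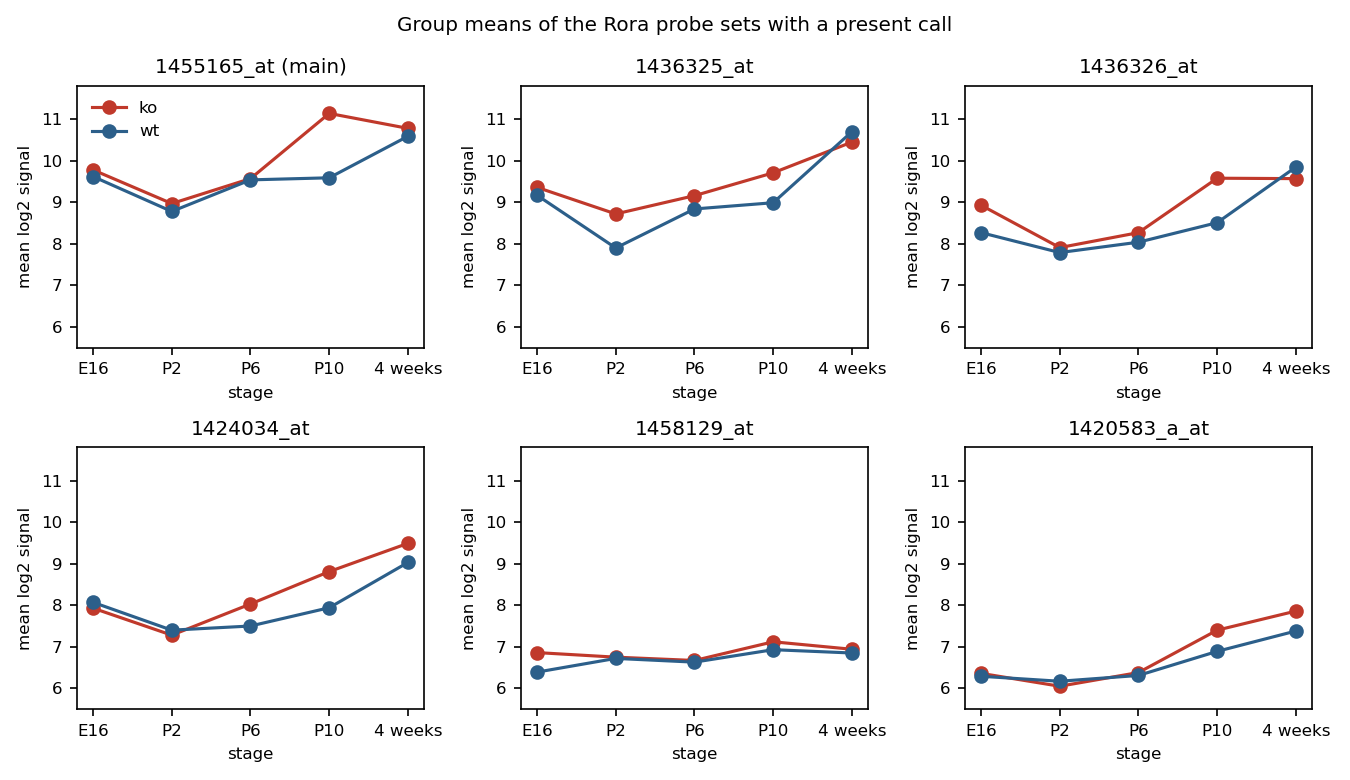
Group means (log2) of the 6 Rora probe sets with a present call at 5 stages, ko in red and wt in blue, no error bars. At P10 each of the 6 is higher in ko, by 1.55 in the main probe set and by 0.19 to 1.07 in the others, and at 4 weeks 2 of them are lower in ko.

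**Figure D4:**
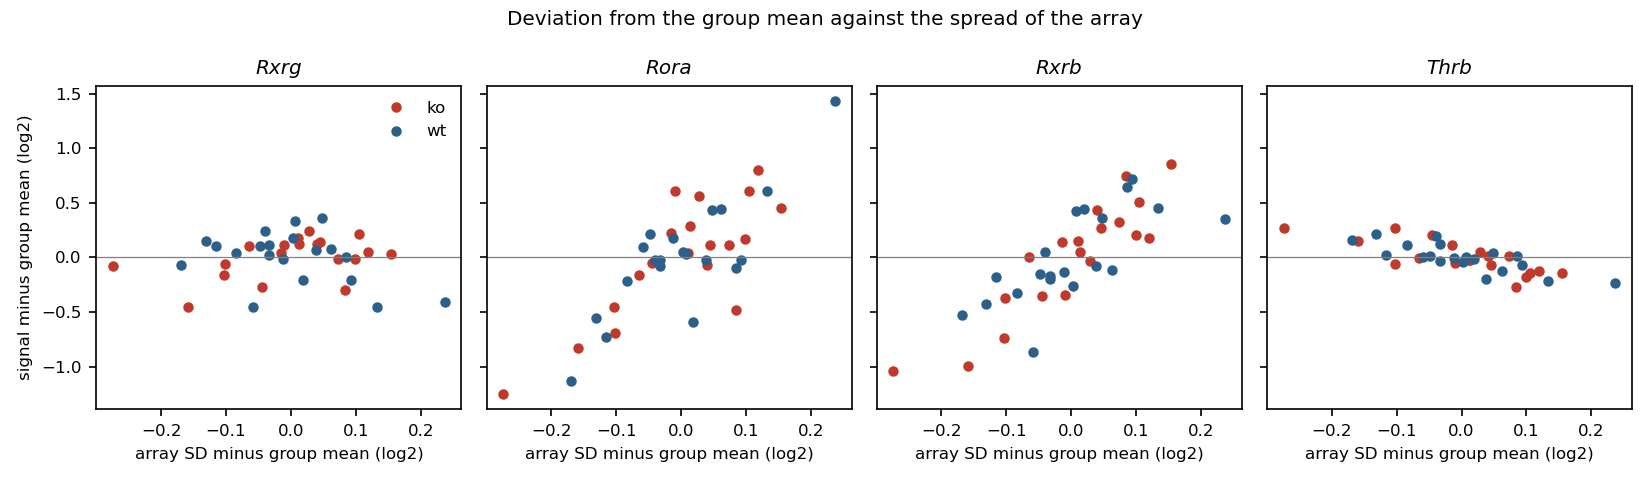
Deviation of each of the 39 arrays from its group mean (log2) for 4 genes, against the deviation of the array's SD over probe sets, ko in red and wt in blue. The leftmost array, ko E16 replicate 3, has deviations of -1.25 in Rora, -1.04 in Rxrb, -0.08 in Rxrg and 0.27 in Thrb.

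Nr2f1 (Entrez 13865, chromosome 13, probe set 1418157_at), known in the mouse as a factor of ventral opsin pattern, was present in every column and was highest at E16. At E16 it lay at 8.39, 7.74 and 5.70 in ko, against 8.58, 7.70, 7.75 and 7.68 in wt. At 4 weeks Nr2f1 read 5.17, 7.59, 4.90 and 4.89 in ko, against 5.58, 5.12, 5.24 and 5.62 in wt. One ko array stood apart at each of these stages, and both were among the 6 doubted ones. In wt, Nr2f1 was lower at 4 weeks than at E16 (difference -2.54, SE 0.47, adjusted p = 0.000115), and the call held with any 1 array left out. In ko it was lower too (-1.64, SE 0.51, adjusted p = 0.0413), a call lost without 5 of 7 single arrays (differences between -2.43 and -1.08, highest adjusted p = 0.343). Without the 6 doubted arrays, which include both outlying ko values, it was -3.08 (SE 0.39, adjusted p = 1.07e-06).

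At P6, Nr2f1 lay at 5.77, 5.66, 5.42 and 5.44 in ko, against 7.12, 7.44, 7.14 and 6.02 in wt. The groups did not overlap, and the difference of -1.36 (SE 0.47) missed the threshold (adjusted p = 0.176). It passed without the 6 doubted arrays (-1.31, adjusted p = 0.0166) and with the SD of each array as a covariate (-1.24, adjusted p = 0.0321). At P10 the groups did not overlap either, with means of 5.17 ± 0.19 in ko and 5.64 ± 0.17 in wt (n = 4 each, difference -0.48, SE 0.47, adjusted p = 0.698). At E16, P2 and 4 weeks the differences were -0.65, -0.78 and 0.25, and without the doubted arrays 0.14, -0.63 and -0.40.

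Nr2f1 is also made by amacrine cells, so that amacrine markers were read beside it. The mean of 7 amacrine markers at P6 was 7.48, 7.39, 7.35 and 7.28 in ko arrays, against 8.78, 9.29, 9.12 and 8.66 in wt arrays, and 4 of the 7 were present in ko against 6 in wt. Of the 7, Tfap2b (-3.50, adjusted p = 0.00104) and Gad1 (-2.78, adjusted p = 0.0196) fell in ko at P6. The marker mean at P10 was between 7.12 and 7.25 in ko arrays and between 7.87 and 8.99 in wt arrays, where the Nr2f1 difference was -0.48 and not called. At E16 it was between 7.42 and 8.07 in ko and between 8.92 and 9.51 in wt, with an Nr2f1 difference of -0.65. At P2 it was between 7.34 and 7.78 in ko and between 7.63 and 9.76 in wt, with an Nr2f1 difference of -0.78. Neither of these Nr2f1 differences was called. In ko 4 weeks replicate 2, which held Nr2f1 at 7.59, that mean was 9.52, against 6.88 to 7.50 in the other ko arrays. The wt arrays at 4 weeks ranged between 7.24 and 9.53 in the markers, with Nr2f1 between 5.12 and 5.62. The part of the marker cells in the Nr2f1 result was not tested.

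**Figure D5:**
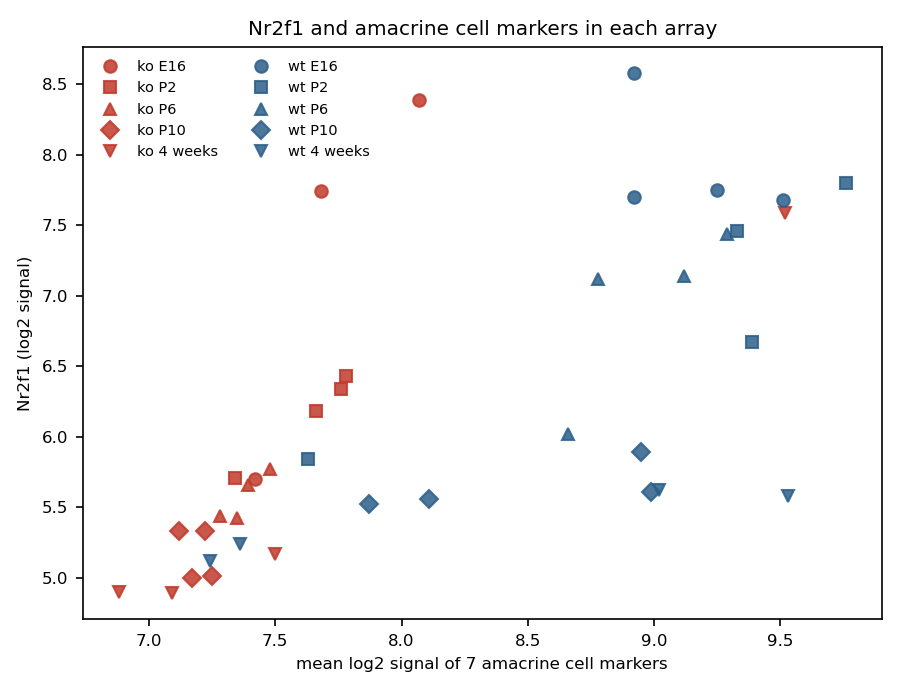
Nr2f1 (log2 signal) against the mean log2 signal of 7 amacrine cell markers in each of the 39 arrays, ko in red, wt in blue, 1 symbol per stage. The ko arrays at P6 lie at or below 7.48 on the marker axis and the wt arrays at P6 at or above 8.66. The ko 4-week array at 7.59 on the Nr2f1 axis lies at 9.52, while wt arrays of 4 weeks reach 9.53 with Nr2f1 at or below 5.62.

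Nr2f2 (Entrez 11819, chromosome 7, probe set 1416158_at), known in the mouse from dorsal retina, was present in every column and was not called between genotypes or stages. At P10 it lay at 9.63, 10.11, 9.65 and 9.89 in ko, against 7.73, 7.74, 9.73 and 9.45 in wt. The 2 low wt arrays were the doubted replicates 1 and 2, and the difference of 1.15 (SE 0.47, adjusted p = 0.235) was 0.23 (adjusted p = 0.849) without the doubted arrays. At E16, P2, P6 and 4 weeks the differences were -0.37, -0.61, -0.86 and 0.48 (adjusted p of 0.67, 1, 0.544 and 0.976), and that at E16 was 0.24 without the doubted arrays. Of its other 5 probe sets, 1444229_at was present in at least 1 column.

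Among 9 measured genes of thyroid hormone handling and response, Hr rose in ko at P10 and Hr and Dio2 at 4 weeks, and none fell. Hr, a corepressor of the thyroid hormone receptors, was 7.77 ± 0.49 in ko and 6.86 ± 0.22 in wt at 4 weeks (n = 4 each, difference 0.91, SE 0.18, adjusted p = 0.000682), and its 4-week call held with any 1 array left out. Its P10 difference was at least 1.58-fold (0.66, adjusted p = 0.0331), lost without 6 of 9 single arrays and without the doubted arrays (0.45, adjusted p = 0.106). Dio2, the deiodinase that makes the active hormone T3, differed by 0.61 (SE 0.18, adjusted p = 0.0375) at 4 weeks, a call lost without 6 of 8 single arrays. It was 0.34 (adjusted p = 0.322) without ko replicate 4 and 0.80 (adjusted p = 0.0026) without the doubted arrays. Klf9, a gene induced by thyroid hormone and named here after its values were seen, rose over the span by 2.86 (SE 0.47) in ko and 2.85 (SE 0.44) in wt (adjusted p = 7.51e-05 and 7.54e-06). The list's median difference was 0.19 at P10 and 0.09 at 4 weeks, against -0.06 and 0.03 in all genes.

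None of 12 measured genes of retinoic acid signalling was called between genotypes by limma at any stage, with 1, 1, 1, 2 and 2 of them at an unadjusted p below 0.05 at E16, P2, P6, P10 and 4 weeks. Of 11 coregulators, Nrip1, a corepressor, rose at P10 (10.70 ± 0.16 in ko, 9.54 ± 0.69 in wt, n = 4 each, difference 1.16, SE 0.28, adjusted p = 0.0151). This was 0.64 (adjusted p = 0.111) without the doubted arrays. Of 9 dorsoventral genes, Vax2, a factor of ventral identity, fell at 4 weeks (-0.42, SE 0.13, adjusted p = 0.0464), a call lost without 5 of 8 single arrays.

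Among 19 other nuclear receptors, Esrrb, an oestrogen-related receptor of rods, fell at P10 and 4 weeks. At 4 weeks it was 6.47 ± 0.13 in ko and 7.92 ± 0.32 in wt (n = 4 each, difference -1.46, SE 0.16, adjusted p = 6.35e-08), and at P10 it was at least 1.76-fold lower (-0.82, adjusted p = 0.00202). Nr4a1, an immediate early orphan receptor, rose at P10 (0.65, adjusted p = 0.0134, and 0.56, adjusted p = 0.091, without the doubted arrays) and 4 weeks (0.98, adjusted p = 4e-05). The clock receptor Nr1d2 rose at P10 (1.32, SE 0.35, adjusted p = 0.0315), with 0.84 (adjusted p = 0.0857) without the doubted arrays. At E16 1 of the 19, Nr4a2, named after its values were seen, fell (-1.47, adjusted p = 0.0461), a call lost without 6 of 8 single arrays. The Esrrb calls and the 4-week call of Nr4a1 held with any 1 array left out.

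The cone phototransduction genes moved more widely. Of 11 measured genes of cone phototransduction, 1, 2, 7, 9 and 9 rose in ko at E16, P2, P6, P10 and 4 weeks and none fell, with medians of -0.39, 0.62, 1.31, 2.96 and 2.86. Opn1sw was 13.12 ± 0.06 in ko and 8.07 ± 1.12 in wt at P10 (n = 4 each, difference 5.05, SE 0.51, adjusted p = 3.86e-08). Opn1mw was not called at P10 (-0.17, adjusted p = 0.777) and rose at 4 weeks to 8.61 ± 0.25 in ko, against 7.04 ± 0.67 in wt (n = 4 each, difference 1.57, SE 0.22, adjusted p = 4.12e-06). Beside this, the difference of Thrb at 4 weeks was 0.01, in a probe set whose group means spanned only 0.31, and that of Rxrg was 0.81. The guanylate cyclase activator Guca1a at P10 (a log2 difference of 5), the channel subunit Cngb3 at 4 weeks (4.23) and the cone transducin Gnat2 at P10 (4.09) differed most among the others, with adjusted p of 3.65e-10, 4.04e-11 and 6.69e-09. At 4 weeks Guca1a was not called, at 12.57 ± 0.37 in ko and 12.18 ± 0.26 in wt (n = 4 each).

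Genes whose group means ran most like each member, with Pearson's r over the 10 group means, were taken for the 7 members that spanned at least 1 log2 unit. For Sall3 these were Alg2 (0.965), Bpnt2 (0.965) and Spire1 (0.962), and for Rxrg Bend5 (0.974), Psg16 (0.967) and Btg2 (0.953). For Rora they were Cflar (0.970), Ndufa4 (0.969) and Rnf6 (0.969). Nr2f1 ran with Zfp30 (0.987), F2r (0.982) and Glrx2 (0.981), and Nr2f2 with Dynlt3 (0.927), Paip1 (0.916) and Fos (0.915). Thra ran with Tmcc1 (0.966), Arfgap1 (0.961) and Mrpl3 (0.952), and Rxrb with Ruvbl2 (0.976), Dnajc2 (0.974) and Zfp28 (0.966). Over the 39 arrays r was lower in every pair, between 0.506 (Nr2f1 with Zfp30) and 0.968 (Nr2f1 with F2r). The named genes had the highest r over the 10 group means for each member among 18193 genes, with clones and predicted gene models left out. They share the same arrays, so that they are a description only.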

How the data were processed

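The deposited table holds log2 values that the authors made, with RMA named in the submitters' processing notes without version or settings. The authors also deposited detection calls per probe set, genotype and stage, and how replicates were combined is not given in the sources used here. Of 34945 probe sets paired with 1 gene, the one of highest mean stood for each of 18193 genes, with no further normalization. Array means lay between 6.94 and 7.01, and precision is limited by how many arrays each group had. Groups were taken from the labels. A mean per group was fitted over 39 arrays in limma 3.58.1 (R 4.3.3), with 29 residual and 2.81 prior degrees of freedom and Benjamini-Hochberg adjustment within each contrast. Folds were computed from these log2 differences. The model was tested on simulated data. All 9 members were named, the 3 genes most like each of the 7 whose group means spanned at least 1 log2 unit, and up to 4 called genes of each list. Members and lists were chosen with earlier results of these data known. Replicate numbers correlated in every pair only between ko P2 and ko E16 (0.30 to 0.74, 3 pairs) and between ko P6 and ko P2 (0.13 to 0.84, 4 pairs), steps in which no member was called with all arrays. Tried alternatives were all probe sets, present genes, quantile normalization, probe set means, array weights, a trended robust prior, a replicate block, and fewer arrays or groups. The array SD as a covariate was added after seeing the data.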

Additional observations from a re-analysis of the deposited data

Results flagged for a closer look

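In all, 8 member values lay farther from the rest of their group of 4 than Dixon's test allows, among 81 groups tested, of which chance flags about 1 in 20. Of these, 3 are from ko P6 replicate 4: Thra at 8.93 (others 9.97 to 10.16), Rxrg at 7.78 (others 8.36 to 8.45) and Sall3 at 6.09 (others 7.46 to 7.72). Another 2 are from ko P2 replicate 4, Thra at 8.76 (others 9.49 to 9.60) and Rora at 8.53 (others 9.09 to 9.20). Both arrays are among the 5 of lowest spread. Nr2f1 in ko 4 weeks replicate 2 was 7.59, against 4.89 to 5.17 in the others. Rxrb in wt P2 replicate 3 was 8.72 (others 8.10 to 8.16), and Nr2f1 in wt E16 replicate 1 was 8.58 (others 7.68 to 7.75).

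The Sall3 difference between ko and wt varied over the stages by limma's F test (adjusted p = 0.0012), with differences of -0.47, 0.82, 1.54, 2.43 and 1.23 at E16, P2, P6, P10 and 4 weeks.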

How the results depend on the processing

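No member call changed sign under any alternative. The counts below are of the 9 members called. Without the 6 doubted arrays 2 were called at P6, 1 at P10 and 3 for ko 4 weeks against ko E16. With only the groups of a contrast in the fit, 0 were called at P6, 1 at P10 and 0 for ko 4 weeks against ko E16. With the array SD as a covariate 2 were called at P6 and 2 for ko 4 weeks against ko E16, and with the mean over probe sets 1 at P10 and 2 for ko 4 weeks against ko E16. With all probe sets in 1 family 0 were called for ko 4 weeks against ko E16. Array weights (gene by gene, 0.063 to 5.36) gave 2, 1, 3 and 5 at E16, P2, P6 and P10, 4 for ko 4 weeks against ko E16 and 7 in the F test, with 2246, 837, 4194, 7942 and 2920 genes called at the 5 stages, 8274 in the F test, 5035 for that ko span and 7683 for wt 4 weeks against wt E16. Leaving out 1 array gave 1 to 2 at P10 and at 4 weeks, 3 to 5 for wt 4 weeks against wt E16 and 0 to 2 for ko 4 weeks against ko E16. Over all genes, calls at E16, P2, P6, P10 and 4 weeks were 205, 63, 281, 512 and 860 at first, 675, 205, 757, 1197 and 1389 without the doubted arrays, and 677, 339, 1641, 1754 and 2028 with the SD covariate. They were 595, 75, 606, 836 and 2004 with all probe sets, 199, 179, 706, 941 and 1147 after quantile normalization, and 17, 38, 201, 210 and 873 with only the groups compared. With 1 array left out they ranged between 60 (without wt E16 replicate 3) and 507 (without wt E16 replicate 2) at E16, 26 (without wt P2 replicate 3) and 119 (without wt P2 replicate 1) at P2, 147 (without ko P6 replicate 3) and 344 at P6, 293 (without ko P10 replicate 2) and 1536 (without wt P10 replicate 3) at P10, and 712 and 779 at 4 weeks. The F test called 571 genes, 1297 without the doubted arrays, 2313 with the SD covariate, 1124 with all probe sets, 1023 after quantile normalization and 1018 without wt P10 replicate 3. For ko 4 weeks against ko E16 the count was 1342, with 4098, 3086 and 2516 under the first 3 of these, 296 with only its groups, and 889 and 2296 without ko E16 replicates 1 and 3. For wt 4 weeks against wt E16 it was 3327, with 5054 under the SD covariate and 7612 with all probe sets. The replicate block gave 0, 0, 1, 2 and 2 members at the 5 stages and 1 in the F test, as without it, and ended the call of Rora for ko P10 against ko P6 (adjusted p = 0.066). The cause of these changes was not tested. Absent detection calls limit the differences of Rxrg, absent in ko at every stage with a call and in wt after E16, and of Sall3, absent in ko at P2 and in wt after E16.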
